A study of Mus musculus with 12 samples.

Results

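Guanylate-binding proteins (GBPs) are large GTPases of the cell-autonomous immune defence, and 9 of the mouse genes, Gbp2 to Gbp10, were followed here by their symbols in RNA-seq of B16F10, a melanoma cell line of the C57BL/6 mouse. Each of the 9 symbols matched 1 row of the 54232 gene rows in the count table, and 8 of them passed the filter on low counts and were among the 14924 genes tested. Gbp8 did not pass, and its counts are given without a test. The 12 libraries fall into 4 groups of 3. Untreated cultured B16F10 cells formed the WT group (WT1, WT2 and WT3). For the Relapsed group (ITF1, Rel and ITM), cells were injected under the skin of mice, sorted from tumors that had relapsed after immunotherapy, and grown to confluency before RNA was taken. The Tumor group (Tumor1, Tumor3 and Tumor4) was sorted from such relapsed tumors and its RNA was extracted without culture. B16F10 cells of the Lyso group (Lyso1, Lyso2 and Lyso3) were incubated with lytic granules concentrated from the medium of stimulated T cells, for 48 hours by the labels and for a shorter time by the study's methods. The labels name no genetic change in any group. They give 6 weeks as the age of the mice, where the study's methods give an older age. All groups derive from a single cell line, each relapsed line stands for itself, and neither the immunotherapy regimen behind a given library nor the number of tumors in it is given in the labels.

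GBPs are known as targets of interferon gamma. The cytokine binds its receptor (Ifngr1 and Ifngr2), the kinases Jak1 and Jak2 pass the signal on, and transcription factors, IRF1 among them, act on GAS and ISRE elements near the genes' start sites. The proteins assemble on pathogen vacuoles and bacterial surfaces, in part through a lipid anchor (prenylation) that Gbp2 and Gbp5 carry. They work there with the immunity-related GTPases and promote inflammasome activation and pyroptosis.

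In these cells the summed level of the family was far higher after granule treatment than in any other group. Most of the Lyso sum was Gbp2, at 1960 CPM on average. Not every member followed the sum, as Gbp4, Gbp8, Gbp9 and Gbp10 were higher in Tumor4 than in any Lyso library. Summed over the 9 genes, the normalised level was 2601 ± 92.1 CPM (SD, n = 3) in Lyso, 254.9 ± 257.3 CPM in Tumor, 28.8 ± 18.5 CPM in Relapsed and 55.3 ± 74.2 CPM in WT. By library the sums were 10.2, 14.8 and 140.9 CPM in WT, and 35.5, 43.0 and 7.91 CPM in ITF1, Rel and ITM. They were 2498, 2630.4 and 2675 CPM in Lyso, and 68.6, 147.5 and 548.4 CPM in Tumor1, Tumor3 and Tumor4. WT3 therefore stood apart from WT1 and WT2, and Tumor4 from Tumor1, while the Lyso libraries lay close together. CPM (counts-per-million) scales a gene's count to the total of its library, which is adjusted by edgeR's TMM factor. In bulk RNA, fewer cells that express a gene and less RNA per cell cannot be told apart.

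The members lie in 2 clusters of the GRCm38 genome. On chromosome 3, all on the plus strand, are Gbp5 (142493978 to 142522344), Gbp7 (142530342 to 142550149), Gbp3 (142560026 to 142573209) and Gbp2 (142620602 to 142638008). Chromosome 5 holds, on the minus strand, Gbp8 (105014150 to 105139540), Gbp9 (105077630 to 105139539), Gbp4 (105115767 to 105139586), Gbp10 (105215699 to 105239533) and Gbp6 (105270702 to 105293698). Gbp4, Gbp8 and Gbp9 share about the same start and 60 bases of exon. All 9 are annotated as protein-coding, and the counts are of reads per gene, not per isoform.

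Promoter sequences of the RefSeq table (GRCm38.p6, 250 bases before to 50 after a start site) were matched for Gbp2, Gbp3, Gbp5 and Gbp7, and no entry was matched for Gbp4, Gbp6, Gbp8, Gbp9 and Gbp10. The 4 genes are shown because they are the members with a matched entry. Each had the core of the interferon-stimulated response element (TTTCNNTTTC, searched on both strands), which 3.44% of the 32851 promoter windows of the table hold. The 30 bases around the core are given 5′ to 3′ on the plus strand, with the core in capitals. In Gbp3 a pair of overlapping cores form 1 run.
Gbp2 (chr3:142620594-142620623): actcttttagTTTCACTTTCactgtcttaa
Gbp3 (chr3:142559992-142560021): gacacagTTTCAGTTTCTATTTCccagatc
Gbp5 (chr3:142496759-142496788): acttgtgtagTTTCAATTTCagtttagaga
Gbp7 (chr3:142530273-142530302): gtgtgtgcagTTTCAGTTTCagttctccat
Counted from the RefSeq start site, the cores begin at base -59 in Gbp2, -45 in Gbp3, -165 in Gbp5 and -53 in Gbp7. In Gbp2 the core falls inside the first exon of the longer GENCODE model, which starts at 142620602. A second RefSeq window of Gbp3, for a start site further downstream, held no core.

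The gamma-activated sequence (GAS, TTCNNNGAA) was present at 2 places in the windows of both Gbp5 and Gbp7 and was not found in those of Gbp2 and Gbp3. It is held by 8.3% of the 32851 windows, and 0.454% hold GAS and the ISRE core together. The bases that precede the annotated exon at the RefSeq start site are shown for these 2 genes, with both kinds of match in capitals. For Gbp5 they lie inside the longer GENCODE gene model, which starts at 142493978, and between its exons.
Gbp5 (chr3:142496684-142496899): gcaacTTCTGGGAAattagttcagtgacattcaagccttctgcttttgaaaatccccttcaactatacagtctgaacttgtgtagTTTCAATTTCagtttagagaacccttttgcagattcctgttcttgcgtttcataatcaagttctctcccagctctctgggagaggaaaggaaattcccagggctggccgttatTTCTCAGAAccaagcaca
Gbp7 (chr3:142530086-142530335): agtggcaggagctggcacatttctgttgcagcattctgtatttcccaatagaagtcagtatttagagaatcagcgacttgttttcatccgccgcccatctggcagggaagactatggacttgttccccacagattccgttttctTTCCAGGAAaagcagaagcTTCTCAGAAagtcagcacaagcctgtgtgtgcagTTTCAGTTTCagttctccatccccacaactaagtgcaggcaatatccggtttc
In Gbp5 the GAS matches begin at bases -245 and -52 from the start site, and in Gbp7 at bases -106 and -87. A match describes letters only, and neither binding nor use of these sites was measured.

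How far the members can be told apart by 75-base reads was computed from GENCODE vM21 transcripts. Of the 75-base words of Gbp10, 77.8% also occur in another gene, and 67.3% of those of Gbp6. Most are shared between these members and with Gm43302, a gene model whose exons overlap theirs on the same strand and which had 0 counts in all 12 libraries. For Gbp7 the share was 11.3%, mostly with the overlapping model Gm43802, which also had 0 counts. It was 8.04% for Gbp8 and 3.61% or less for Gbp2, Gbp3, Gbp4, Gbp5 and Gbp9. Reads that fit several genes were not counted, so the levels of Gbp6 and Gbp10 are uncertain and low-biased, while the other members rest mostly on sequence of their own.

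**Figure D1:**
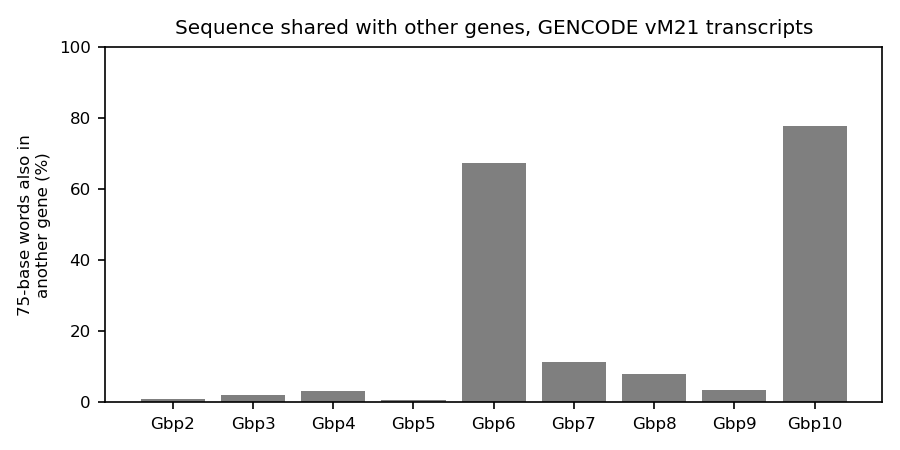
Bars give, for each of the 9 members, the percentage of 75-base words of its GENCODE vM21 transcripts that also occur in another gene. Gbp10 (77.8%) and Gbp6 (67.3%) stand far above Gbp7 (11.3%) and the other members.

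Depth differed between libraries. Counts on genes ran from 1667398 in WT1 and 2350129 in WT2 to 16384021 in WT3, from 12749399 to 16402629 in Relapsed, from 10895611 to 12675277 in Lyso and from 3102442 to 5049496 in Tumor. A gene with 3 counts or fewer was treated as not detectable in a library, which stood for 1.70 CPM in WT1 and 0.177 CPM in WT3, and these floors cover counting error only. The 10 melanocyte markers had more than 3 counts in every library, as the labelled cell type would have. Fibroblast markers summed to 7707 to 10709 CPM in Tumor against 39.5 CPM or less in WT, and endothelial markers to 48.3 to 53.6 CPM against 2.96 to 10.2 CPM. The labels do not say whether the libraries of a group came from separate cultures or animals, so p-values measure the spread between these libraries.

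Lyso against WT asks how tumor cells respond to T-cell-derived granules. All 8 tested members were called higher in Lyso (adjusted p under 0.05 and a log2 fold change over 1, edgeR's quasi-likelihood test with Benjamini-Hochberg adjustment), where 2.43% of all genes tested were. Gbp4, Gbp5, Gbp6, Gbp9 and Gbp10 had few or no counts in WT. They passed the filter through other groups, so their place among the tested genes depends on those groups. For all 9 members, Gbp8 included, every Lyso library lay above every WT library, which held for 15.8% of the genes tested. The median log2 fold change of the 8 members was 5.78, or 5.31 with Gbp10 set at its lower bound and Gbp4 at its pooled ratio, and that of all genes tested was -0.00482. In an exact permutation test of a single gene, 3 against 3 libraries cannot go below p = 0.1, which each of the 9 members reached.

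Gbp2, the member with the highest level per length, had 5.66, 6.33 and 57.6 CPM in WT1, WT2 and WT3 and 1866, 1989 and 2026 CPM in the Lyso libraries. Its log2 fold change was 6.14 (SE 0.98, adjusted p = 0.00326, edgeR). Gbp7 had 0.566, 1.27 and 22.7 CPM in WT and 289, 268 and 284 CPM in Lyso, a log2 fold change of 4.53 (SE 0.85, adjusted p = 0.0085, edgeR). For Gbp2, WT3 was 10.2 times WT1, and for Gbp7 the gap between WT3 and the shallower WT libraries was wider. Still, WT3 lay below every Lyso library for both genes. Without WT3 the log2 fold changes were 8.35 for Gbp2 (adjusted p = 0.00263) and 8.17 for Gbp7 (0.00352). The value of Gbp7 then rests on 1 and 3 counts in WT1 and WT2, which are not above the floor of 3 counts.

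Gbp3, the neighbour of Gbp7, changed least among the tested members. It had 3.96, 7.18 and 58.9 CPM in WT and 207, 216 and 209 CPM in Lyso, and its log2 fold change was 2.87 (SE 0.74, adjusted p = 0.0445, edgeR). WT3 was 14.9 times WT1 for this gene. The call was lost when WT1, WT2 or any single Lyso library was left out, with adjusted p-values of up to 0.124, and the log2 fold change was 5.20 (adjusted p = 0.00442) without WT3.

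Gbp5, a prenylated member linked to inflammasome assembly, had 0 counts in WT1 and WT2 and 0.767 CPM in WT3, against 19.9, 22.2 and 21.7 CPM in Lyso. Its log2 fold change was 5.20 (SE 0.75, adjusted p = 0.00163, edgeR). Gbp6 likewise had 0 counts in WT1 and WT2 and 0.649 CPM in WT3, and reached 58.5, 73.0 and 81.1 CPM in Lyso. Its log2 fold change was 7.12 (SE 0.75, adjusted p = 0.000256, edgeR). These 2 members were called under each of the 15 alternatives that could be computed for them.

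Gbp4 was nearly silent in WT, with 0, 0 and 1 counts, and had 43.4, 48.9 and 41.5 CPM in Lyso. Pooled over libraries it was 938 times higher in Lyso, with a 95% counting interval of 168 to 37100, and its adjusted p was 0.00305 (edgeR). Gbp9 had 0 counts in WT1 and WT2 and 0.236 CPM in WT3, against 8.86, 8.94 and 7.45 CPM in Lyso, a log2 fold change of 5.43 (SE 0.99, adjusted p = 0.00723, edgeR). Gbp10 had no count in any WT library and 5.37, 4.38 and 4.45 CPM in Lyso, at least 33.2-fold higher against a floor of 3 counts over the WT group (adjusted p = 0.0286, edgeR). Gbp8 was the lowest, with no count in WT and 4, 4 and 7 counts in Lyso, at least 3.13-fold higher by the same floor. Without WT3, which leaves only the shallow WT libraries, 5 members were called and Gbp4 (adjusted p = 0.0551), Gbp9 (0.0777) and Gbp10 (0.17) were not. The call of Gbp10 was also lost without WT2 or any single Lyso library, with adjusted p-values of 0.051 to 0.0924. Against WT3 alone, the library of like depth, the calls left were those of Gbp4, Gbp5 and Gbp6.

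**Figure D2:**
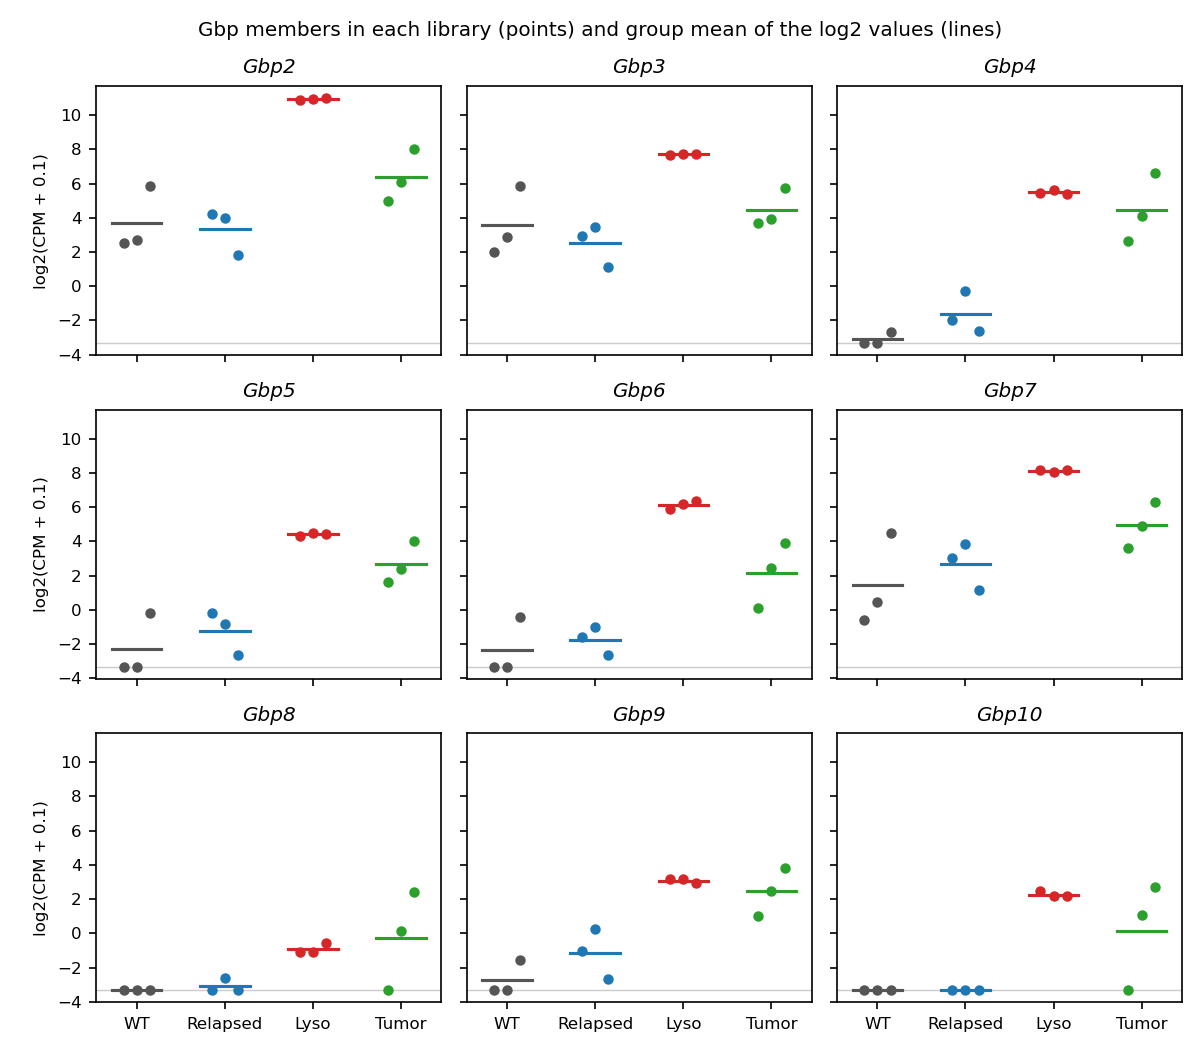
Each panel plots 1 member as log2(CPM + 0.1), with a point for each of the 12 libraries and a line at the group mean of the log2 values, the grey line marking 0 counts. In every panel the 3 Lyso points lie together above the WT points, the WT3 point lies above WT1 and WT2 for 7 members, and the Tumor points spread from Tumor1 at the bottom to Tumor4 at the top.

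Markers of T cells, the source of the granules, also differed in Lyso. The 12 markers summed to 15.9 to 18.4 CPM in Lyso and 1.27 to 6.79 CPM in WT, and 5 of the 12 had more than 3 counts in every Lyso library. Gzmb, the granule protease granzyme B, had 64, 72 and 63 counts in Lyso, and Cd8a, a chain of the CD8 co-receptor, had 22, 13 and 28, with no count of either in WT. Cd3e, part of the T cell receptor complex, had 5, 7 and 1 counts in Lyso and 0 in WT. Lck had 65, 63 and 66 counts in Lyso and 12, 3 and 23 in WT, where it made up nearly all of the sum. Of the fibroblast and myeloid lists, Thy1 had 43, 24 and 24 counts and Ptprc 32, 39 and 27 in Lyso. In WT, Thy1 had 0 counts and Ptprc 1. Over these lists, 1 of 10 and 1 of 7 tested genes were called higher in Lyso, and 2 and 0 lower. In each Lyso library Gbp2, Gbp3, Gbp4, Gbp5, Gbp6 and Gbp7 lay above the sum of the 12 T cell markers, and Gbp8, Gbp9 and Gbp10 lay below it. Such a sum does not bound the Gbp levels that T cell RNA could bring. The part of T cell RNA in the levels of the Gbp members was not tested.

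Tumor against WT asks what sorted relapsed tumor cells express before any culture. Of the 8 tested members 5 were called higher, Gbp4, Gbp5, Gbp6, Gbp9 and Gbp10, where 8.56% of all genes tested were. In a fit of only these groups 5 members passed the filter, and 2 of them, Gbp4 and Gbp5, were called. Gbp6, Gbp9 and Gbp10 did not pass it there, so their tests depend on the fit of all libraries. In 4 members, Gbp4, Gbp5, Gbp6 and Gbp9, the lowest Tumor value exceeded the highest WT value, which held for 21% of the genes tested. The median log2 fold change of the 8 members was 3.84, with 0.00142 for all genes tested. In each member Tumor4 was highest and Tumor1 lowest, and the ratio of the pair was 4.07 in Gbp3 to 15.8 in Gbp4 among the 6 members with more than 3 counts in every Tumor library.

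Gbp4 had 6.18, 16.9 and 97.4 CPM in Tumor1, Tumor3 and Tumor4, and pooled it was 887 times higher than in WT (95% counting interval 159 to 35100, adjusted p = 0.000994, edgeR). In Tumor4 it exceeded each Lyso library. Gbp9 had 1.95, 5.43 and 14.1 CPM in Tumor (log2 fold change 5.23, SE 1.02, adjusted p = 0.00323, edgeR). Gbp5 had 2.93, 5.03 and 16.01 CPM, with a log2 fold change of 3.81 (SE 0.80, adjusted p = 0.0051, edgeR). These 3 members kept their calls under every alternative computed for them, without Tumor4 and without WT3 included.

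Gbp6 had 0.975, 5.43 and 15.1 CPM in Tumor, a log2 fold change of 3.87 (SE 0.85, adjusted p = 0.00663, edgeR). Its call was lost when all libraries were thinned to the shallowest total (adjusted p = 0.125). Gbp10 had 0, 2.01 and 6.36 CPM in Tumor and no count in WT, at least 21.2-fold higher over the group (adjusted p = 0.0211, edgeR). As Tumor1 had no count, its libraries overlapped those of WT, and the call was lost without Tumor4 (adjusted p = 0.052) or without WT3 (0.147). Gbp8 had 0, 5 and 22 counts in Tumor and was at least 15.4-fold higher than in WT, from 2 of the 3 libraries.

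The higher-expressed members of chromosome 3 were not called. Gbp2 had 31.2, 67.2 and 263 CPM in Tumor (log2 fold change 2.12, SE 0.84, adjusted p = 0.101, edgeR). Gbp7 had 12.4, 29.2 and 78.1 CPM (log2 fold change 1.74, SE 0.81, adjusted p = 0.161, edgeR). Gbp3 had 13.0, 15.3 and 53.0 CPM against 58.9 CPM in WT3 (log2 fold change -0.07, SE 0.75, adjusted p = 0.967, edgeR). The values moved with WT3 and with Tumor4. Without WT3 the log2 fold changes were 4.33 for Gbp2 (adjusted p = 0.0193), 5.37 for Gbp7 (0.0226) and 2.25 for Gbp3 (0.108), so that 6 members were called. The value of Gbp7 then rests on 1 and 3 counts in WT1 and WT2. Without Tumor4 the log2 fold changes were 0.85 for Gbp2 (adjusted p = 0.534), 0.83 for Gbp7 (0.578) and -0.997 for Gbp3 (0.487). Gbp2 (adjusted p = 7.72e-06) and Gbp7 (0.000218) were also called with no filter on low counts. That setting can give far smaller p-values without a larger fold change. For Gbp2 in Lyso against WT it gave an adjusted p of 2.29e-21 at a log2 fold change of 6.11, against 0.00326 at 6.14 (edgeR).

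Other cell types were present in the Tumor libraries beside these values. Myeloid markers summed to 48.4, 56.4 and 72.3 CPM in Tumor1, Tumor3 and Tumor4, in the order of the Gbp levels. Their sums were 15.3 to 30.6 CPM in WT and 35.8 to 39.4 CPM in Lyso. Of the 10 markers, 7 were over 3 counts in every Tumor library, and 5 of the 7 tested were called higher than in WT. Cd68 went another way, with 7.15, 9.26 and 10.8 CPM in Tumor against 1.13, 11.8 and 16.6 CPM in WT. Csf1r was present in every WT library, at 7.18 to 9.79 CPM. T cell markers summed to 4.23, 3.82 and 9.89 CPM, with Cd3e, Cd3d and Cd8b1 at 0 in all 3. Fibroblast markers fell in the opposite order, from 10709 CPM in Tumor1 to 7707 CPM in Tumor4. Their part in the Gbp levels was not tested.

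Relapsed against WT asks whether a difference remained in lines grown from relapsed tumors. None of the 8 tested members was called in either direction by edgeR, where 0.0134% of all genes tested were called higher and 0.0268% lower. Gbp2, Gbp3 and Gbp7 alone passed the filter in a fit of only these groups, and 0 of these 3 were called. Gbp4, Gbp5, Gbp6, Gbp9 and Gbp10 passed it in the fit of all libraries through their counts in Lyso and Tumor, and Gbp10 had no count in WT or Relapsed, so a call could not arise for it. At an unadjusted p under 0.05 there was 1 member, Gbp3, which was also called lower when no filter on low counts was used (log2 fold change -2.08, adjusted p = 1.89e-05). The main fit gave nearly the same log2 fold change, -2.10, with an adjusted p of 0.353 (edgeR). DESeq2 called 0 and gave no adjusted p for Gbp2, Gbp3 and Gbp8. ITM was the lowest line for Gbp2, Gbp3, Gbp4, Gbp5, Gbp6, Gbp7 and Gbp9.

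Gbp2 had 18.4, 15.5 and 3.47 CPM in ITF1, Rel and ITM (log2 fold change -1.17, SE 0.85, adjusted p = 0.652, edgeR). Gbp3 had 7.45, 10.7 and 2.10 CPM (log2 fold change -2.10, SE 0.76, adjusted p = 0.353, edgeR). Gbp7 had 8.06, 14.1 and 2.10 CPM (log2 fold change -0.59, SE 0.81, adjusted p = 0.834, edgeR). All 3 genes overlapped WT, and their fold changes turned positive without WT3, at 1.02 for Gbp2, 0.21 for Gbp3 and 3.03 for Gbp7, none of them called. The value of Gbp7 then rests on 1 and 3 counts in WT1 and WT2.

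The other members were near the floor in the relapsed lines. Gbp4 had 2, 11 and 1 counts, Gbp5 10, 7 and 1, Gbp6 3, 6 and 1, and Gbp9 5, 16 and 1 counts in ITF1, Rel and ITM. Gbp8 had 1 count in all, and Gbp10 had 0 counts. Gbp4 was the only member whose 3 Relapsed libraries all lay above WT, which held for 6.43% of the genes tested. ITM and WT3, the closest libraries, had 1 count each. Gbp4 had 14 counts in all against 1 in WT, a pooled ratio of 6.61 with a 95% counting interval of 1.01 to 280.0, and an adjusted p of 0.789 (edgeR).

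Set against the relapsed lines, which are closer to Lyso in depth than WT1 and WT2 are, all 8 tested members were again called higher in Lyso, where 3.21% of all genes tested were. Lyso lay above Relapsed in every library for all 9 members, which held for 15.3% of the genes tested. Log2 fold changes ran from 4.04 for Gbp9 to 8.22 for Gbp6, leaving aside Gbp10, which was at least 70.2-fold higher. The count stayed at 8 whichever library of the 2 groups was left out. The Lyso libraries are the same as in the comparison with WT, so the results are not independent.

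In Tumor against Relapsed 6 members were called higher, where 8.36% of all genes tested were, and Tumor lay above Relapsed in every library for 6, Gbp2, Gbp3, Gbp4, Gbp5, Gbp6 and Gbp9, which held for 20.1%. The called members were Gbp2 (log2 fold change 3.29, SE 0.87, adjusted p = 0.0186, edgeR), Gbp4, Gbp5, Gbp6, Gbp9 and Gbp10. Gbp3 (2.03, SE 0.78, adjusted p = 0.0894, edgeR) and Gbp7 (2.33, SE 0.79, adjusted p = 0.0569, edgeR) were not called. In a fit of only these groups 6 members passed the filter and 4 were called higher. Gbp2 lost its call without Tumor4 (adjusted p = 0.123), and Gbp7 was called without Tumor1 or without Rel.

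**Figure D3:**
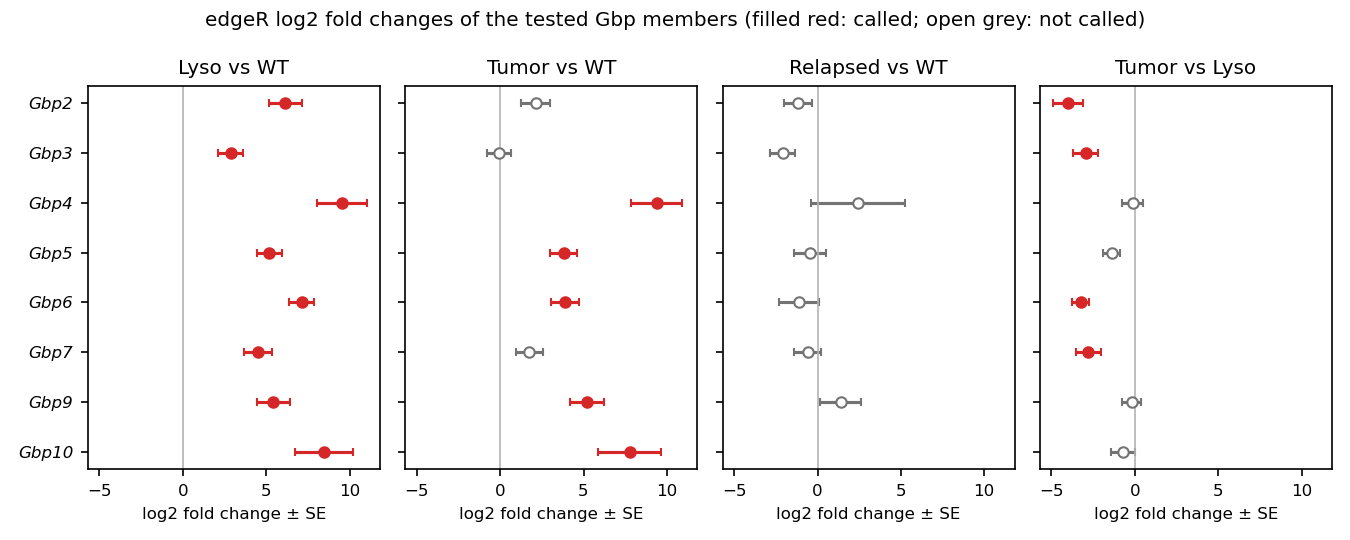
Points give the log2 fold change of the 8 tested members in 4 comparisons, with bars of 1 standard error, red and filled where called. Gbp10 has no point in Relapsed vs WT, as it had 0 counts in both groups. All 8 are red in Lyso vs WT, 5 in Tumor vs WT, none in Relapsed vs WT and 4, all below 0, in Tumor vs Lyso. Fitted values of Gbp4 and Gbp10 against WT depend on counts of 1 and 0 there.

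Tumor and Lyso were then compared with each other, since both stand above WT. Gbp2, Gbp3, Gbp6 and Gbp7, 4 of the 8 tested members, were called lower in Tumor, where 4.14% of all genes tested were called lower, and 0 were called higher, where 8.78% were. Gbp2 differed most (log2 fold change -4.02, SE 0.88, adjusted p = 0.00507, edgeR), followed by Gbp6 (-3.25, SE 0.51, adjusted p = 0.00059, edgeR). Gbp3 (-2.94, SE 0.75, adjusted p = 0.0123, edgeR) and Gbp7 (-2.79, SE 0.76, adjusted p = 0.0175, edgeR) were also lower, but lost the call without Tumor1 or without Tumor3, with adjusted p-values of 0.0577 to 0.0819.

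Gbp4, Gbp9 and Gbp10 were not called. Their log2 fold changes were -0.14 (SE 0.64, adjusted p = 0.904, edgeR) for Gbp4, -0.20 (SE 0.57, adjusted p = 0.838, edgeR) for Gbp9 and -0.70 (SE 0.71, adjusted p = 0.527, edgeR) for Gbp10. Tumor4 lay above and Tumor1 below the Lyso range in each of them. Gbp5 was lower in every Tumor library (log2 fold change -1.38, SE 0.52, adjusted p = 0.0701, edgeR). Without Tumor4, Gbp4 (-1.90, adjusted p = 0.0102) and Gbp5 (-2.37, adjusted p = 0.0078) were called lower, so that 6 members were.

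The make-up of the family differed with these contrasts. Per kilobase of exon, Gbp2 held 84.4% to 85.2% of the summed CPM per kb of the 9 genes in Lyso, 60.8% to 66.0% in Tumor, 49.5% to 64.9% in Relapsed and 50.6% to 63.1% in WT. Gbp3 held 34.0% to 44.5% in WT, 20.2% to 26.4% in Relapsed, 10.2% to 19.5% in Tumor and 6.78% to 7.20% in Lyso, and these ranges did not overlap, though those of WT1 and WT2 rest on 7 and 17 counts. Gbp4 held 4.04% to 8.20% in Tumor, 0.587% to 0.702% in Lyso, 0.181% to 0.792% in Relapsed and 0.0174% or less in WT. Gbp9 held 1.72% to 2.48% in Tumor, 0.152% to 0.195% in Lyso, 0.476% to 1.67% in Relapsed and 0.101% or less in WT. The Relapsed and WT shares of these 2 genes rest on few counts. The shares of a library sum to the whole, so a rise of Gbp2 lowers the others, and the lengths are those of all annotated exons of a gene.

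**Figure D4:**
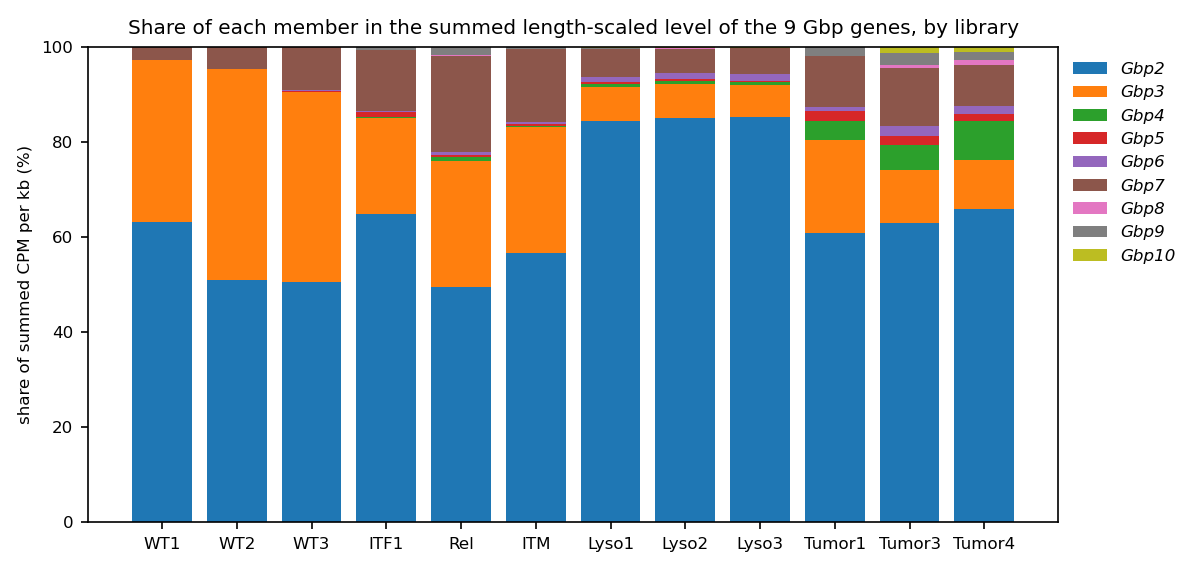
Stacked bars give each member's percentage of the summed CPM per kb of the 9 genes in each of the 12 libraries. Gbp2 takes 84.4% to 85.2% of each Lyso bar, Gbp3 34.0% to 44.5% of each WT bar, and Gbp4 4.04% to 8.20% of each Tumor bar.

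In order of mean level per kilobase in Lyso, the genes ran Gbp2 (779 ± 33.3 CPM per kb, SD, n = 3), Gbp3 (64.5 ± 1.43), Gbp7 (49.9 ± 1.97), Gbp6 (11.9 ± 1.92), Gbp4 (5.95 ± 0.511), Gbp5 (3.20 ± 0.181), Gbp9 (1.63 ± 0.162), Gbp10 (1.22 ± 0.143) and Gbp8 (0.127 ± 0.0322). Neighbours in that order differed by more than their SDs, Gbp10 and Gbp6 with the uncertainty of shared reads. In Tumor the order was Gbp2 (47.9 ± 49.6 CPM per kb), Gbp3 (8.30 ± 6.87), Gbp7 (7.11 ± 6.09), Gbp4 (5.36 ± 6.66), Gbp9 (1.39 ± 1.21), Gbp5 and Gbp6 (both 1.20), Gbp10 (0.72 ± 0.839) and Gbp8 (0.599 ± 0.797). These SDs hold the shift from Tumor1 to Tumor4 that the members share. Within each Tumor library Gbp2 was highest per kilobase, Gbp3 and Gbp7 followed, and Gbp4 came next, while Gbp3 and Gbp7 changed places in Tumor3 and the order of Gbp5, Gbp6 and Gbp9 differed between libraries.

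The remaining rows with a Gbp symbol were Gbp11, Gbp2b and Gbp2-ps. Gbp11, annotated as a polymorphic pseudogene of the chromosome 5 cluster, had 13.3, 14.0 and 11.1 CPM in Lyso, 0.975, 0.604 and 1.41 CPM in Tumor and at most 0.422 CPM in WT. It was called higher in Lyso (log2 fold change 5.96, SE 0.47, adjusted p = 6.04e-05, edgeR) and in Tumor (2.28, SE 0.65, adjusted p = 0.0267, edgeR). The Tumor value rests on 3, 3 and 6 counts against 0, 1 and 3 in WT, so that only Tumor4 was over the floor. Gbp2b, next to Gbp2 on chromosome 3, had 0.377 to 0.891 CPM in Lyso and was not tested. Gbp2-ps had 0 counts in every library.

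Of the interferon signalling list, 8 of 19 tested genes were called higher in Lyso and 5 in Tumor, and 0 in Relapsed, against WT. Ifng itself, the gene of interferon gamma, had 2, 0 and 5 counts in Lyso, 1 in Tumor4 and 0 in the other 8 libraries. The receptor and kinase genes changed little in Lyso, with log2 fold changes of -0.29 for Ifngr1 (adjusted p = 0.383, edgeR), 0.04 for Ifngr2 (0.948), -0.18 for Jak1 (0.575) and 0.64 for Jak2 (0.0178, below the fold minimum). In Tumor they were 0.58 for Ifngr1 (adjusted p = 0.0313, edgeR, below the fold minimum), 0.15 for Ifngr2 (0.645), 0.11 for Jak1 (0.653) and 0.45 for Jak2 (0.0412, below the fold minimum).

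Downstream, the transcription factor gene Irf1 had 4.53, 8.02 and 17.9 CPM in WT, 658, 746 and 758 CPM in Lyso (log2 fold change 5.89, SE 0.57, adjusted p = 0.000193, edgeR) and 35.4, 64.6 and 173 CPM in Tumor (2.91, SE 0.52, adjusted p = 0.00198, edgeR). Irf2, a related factor, rose in Lyso (1.64, SE 0.17, adjusted p = 0.000256, edgeR) and stood at 0.03 in Tumor on the log2 scale (adjusted p = 0.935, edgeR).

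Further genes called in Lyso were Socs1, a feedback inhibitor of JAK signalling (4.56, SE 0.46, adjusted p = 0.000212, edgeR), and Cxcl10, a T cell chemokine (4.13, SE 0.43, adjusted p = 0.000256, edgeR), which was also called in Tumor (2.75, SE 0.42, adjusted p = 0.000648, edgeR). Nlrc5, a transactivator of MHC-I, had at most 4.48 CPM in WT, 164, 186 and 173 CPM in Lyso (log2 fold change 5.66, SE 0.65, adjusted p = 0.000425, edgeR) and 20.2, 43.7 and 91.6 CPM in Tumor (3.92, SE 0.65, adjusted p = 0.00114, edgeR). Irf8 had 1 count in WT, 53.6 CPM on average in Lyso and 14.1 CPM in Tumor, called in both. Cxcl9, another T cell chemokine, also had 1 count in WT and was higher in Tumor, at 29.6 CPM, than in Lyso, at 2.89 CPM (log2 fold change 3.36, SE 0.36, adjusted p = 3.18e-05, edgeR).

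The immunity-related GTPases, which act with GBPs on vacuoles, were called higher as 6 of 6 in Lyso and 4 of 6 in Tumor. Their summed level was 19.8, 30.4 and 208 CPM in WT, 3734 to 3994 CPM in Lyso and 91.0, 246.8 and 806 CPM in Tumor1, Tumor3 and Tumor4, with WT3 and Tumor4 again highest in their groups. Igtp had 1300 CPM on average in Lyso, 67.9 CPM in Tumor and 4.79 CPM in WT (log2 fold changes 7.56, SE 1.04, and 3.31, SE 0.93, adjusted p = 0.00114 and 0.0259, edgeR). Irgm2 had 558.8 CPM in Lyso and 44.9 CPM in Tumor, against 12.5 CPM in WT, and was called in Lyso (adjusted p = 0.00669, edgeR) and not in Tumor (0.246). Iigp1, with 391 and 77.4 CPM, Tgtp2, with 146.8 and 34.7 CPM, and Tgtp1, with 65.5 and 16.9 CPM in Lyso and Tumor, had at most 0.34 CPM on average in WT. Tgtp1 and Tgtp2 are near-identical copies, so their counts are uncertain.

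Of the inflammasome and pyroptosis list, 2 of 8 tested genes were called higher in Lyso and 6 in Tumor. Zbp1, a nucleic acid sensor, rose in both (log2 fold changes 5.91, SE 0.68, and 4.22, SE 0.70, adjusted p = 0.000425 and 0.00121, edgeR), as did Gsdmd, the pore-forming gasdermin D (2.62, SE 0.57, and 3.02, SE 0.58, adjusted p = 0.0201 and 0.00315, edgeR). Casp4, the sensor of cytosolic lipopolysaccharide, was called in Tumor, at 15.1 CPM on average against 3.34 CPM in WT (adjusted p = 0.00813, edgeR), and not in Lyso, at 9.61 CPM (0.0767). Casp1 was called in Tumor (log2 fold change 2.78, SE 0.68, adjusted p = 0.0126, edgeR). So was Nlrp3, with 4, 7 and 12 counts in Tumor and 2 counts in WT (adjusted p = 0.00613, edgeR). The sum of the myeloid markers given above was also higher in Tumor.

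None of the 5 prenylation enzymes and none of the 10 genes of ATG8 conjugation, which places GBPs and immunity-related GTPases on their target membranes, was called in Lyso or in Tumor. Median log2 fold changes of these lists were -0.0455 and -0.0199 in Lyso and -0.0948 and -0.116 in Tumor.

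**Figure D5:**
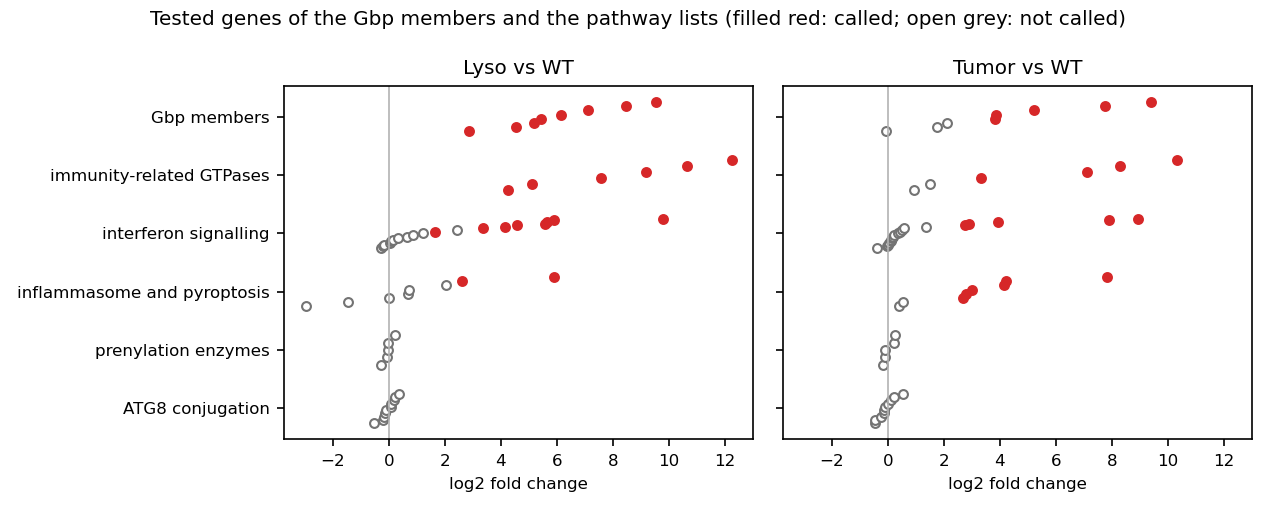
Each point is a tested gene, placed by its log2 fold change against WT, in Lyso on the left and Tumor on the right, for the Gbp members and the 5 pathway lists, filled red where called. In Lyso 8 of 8 members and 6 of 6 immunity-related GTPases are red, in Tumor 5 and 4, and in the bottom 2 lists none.

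Across the 12 libraries, log2 levels of the tested members were correlated with each other in all 28 pairs, with Pearson's r from 0.761 (Gbp3 with Gbp4) to 0.982 (Gbp4 with Gbp9) and a median of 0.923. The points share the grouping into 4 conditions, which sets much of these values, and no test was made. The genes most like the mean profile of the 8 tested members were Erap1 (r = 0.998), Tap1 (0.992), Psme2 (0.989), Ccrl2 (0.98), 9330175E14Rik (0.979), Igtp (0.979), Irf1 (0.979), Nlrc5 (0.976), Iigp1 (0.976) and Psme1 (0.976), of 14916 genes compared.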

How the data were processed

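The measurements were raw read counts per gene from RNA-seq of 12 B16F10 libraries, 3 in each of 4 groups taken from the sample labels. The authors trimmed adaptors with fastp 0.19.6, aligned the reads to GRCm38 with STAR 2.7.1a and deposited the counts per gene without normalization, as stated in the study's methods and the submitters' processing notes, which also name DESeq2 1.24.0. The annotation release and the strand setting are not given in the sources used here. Each of the 12 count columns was matched to 1 sample by its title, and 0 columns were left without a sample. Reads assigned to no gene stayed out of library sizes. Of a column's reads, 36.2% to 39.4% fell on genes. The largest share, 43.5% to 44.8%, fell on no annotated feature, and 11.3% to 14.9% were multimapping. Multimapping reads are lost to genes with near-identical copies.

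Symbols were found for 54079 of the 54232 identifiers. Counts were tested with edgeR 4.0.16 under R 4.3.3, by its quasi-likelihood functions glmQLFit and glmQLFTest, using TMM factors, filterByExpr by group, 1 fit of all 12 libraries and Benjamini-Hochberg adjustment over 14924 genes. Calls needed an adjusted p below 0.05 together with a change of more than 1 on the log2 scale in either direction. Each standard error was obtained by dividing the log2 fold change by the root of its F value. The script was tested on simulated data before use. Libraries within a group differed by more than counting noise, so none was counted as a duplicate. Gene models and 75-base words came from GENCODE vM21, promoters from RefSeq. Other steps were run in Python 3.11.15.

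The members, gene lists and marker lists were chosen with earlier results of these data known, and list counts are not independent evidence. Genes were named by a rule: the 9 members, other Gbp rows, Ifng, Ifngr1, Ifngr2, Jak1, Jak2, Irf1 and Irf2, at most 5 called genes per list with the smallest p in Lyso and in Tumor against WT, and the 10 genes most like the members. A gene that the rule also named is not reported here. Marker genes are named where they bear on a result. Comparisons that share a group are not independent. Alternatives were DESeq2 1.42.0, RLE factors, library size alone, no filter, at least 10 counts in each compared library, only the groups compared, the adjusted p alone, thinning to the shallowest library, control libraries of like depth, each library left out, and the replicate number as a block.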

Additional observations from a re-analysis of the deposited data

How the results depend on the processing

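Of the 105 recomputed counts of called members, 91 stayed within 1.5 times the main count. The 91 include counts of 0 that stayed at 0, as in each alternative of Relapsed against WT. Members called lower were counted only in Tumor against Lyso, so the lower call of Gbp3 in Relapsed is outside these counts. A like count can also hold other members. In Tumor against WT without WT3, Gbp2 and Gbp7 gained a call and Gbp10 lost its call. In Lyso against WT the 8 members called higher became 1 under at least 10 counts in every library compared, where only 1 member could be tested, and 3 with WT3 as the only control. In Tumor against WT the 5 called higher became 8 with no filter on low counts, 3 with libraries thinned to the shallowest total, 2 in a fit of only the 2 groups compared, where 5 members were tested, and 0 under at least 10 counts, where 1 was tested. Under at least 10 counts the counts fell to 3 of 3 tested in Lyso against Relapsed and 1 of 3 in Tumor against Relapsed. In Tumor against Lyso 1 member, Gbp8, was called higher with no filter on low counts, against 0, and DESeq2 called 1 member lower against 4. DESeq2 gave no adjusted p for Gbp2 and Gbp3, and called the other 6 of the 8 members higher in Lyso against WT. The cause of the other changes was not tested. With 1 library left out, the counts ranged from 5 to 7 in Lyso against WT, 4 to 6 in Tumor against WT, 8 to 8 in Lyso against Relapsed, 5 to 8 in Tumor against Relapsed, 0 to 0 in Relapsed against WT, and in Tumor against Lyso 0 to 1 higher and 2 to 6 lower. Gbp8 passed the filter in some of these fits and is counted there.

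Directions turned only in members without a call in that comparison. In Tumor against WT the log2 fold change of Gbp3 (-0.07) was 0.21 with DESeq2, 0.32 after thinning, 2.25 with only the shallow WT libraries, and -0.997 to 2.25 with 1 library left out. In Relapsed against WT, leaving out 1 library gave -1.59 to 1.02 for Gbp2, -2.63 to 0.21 for Gbp3, -1.13 to 4.86 for Gbp5, -1.77 to 4.04 for Gbp6 and -1.30 to 3.03 for Gbp7, each highest without WT3, and Gbp5 had 0.033 with DESeq2. In Tumor against Lyso it gave -1.90 to 0.35 for Gbp4 and -1.11 to 0.20 for Gbp9, lowest without Tumor4 and highest without Tumor1.

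No sign was seen that the shared replicate numbers of WT, Lyso and Tumor pair the libraries. Deviations of same-numbered libraries from their group means had correlations of -0.0082 to 0.0516, and those of differently numbered libraries -0.0444 to 0.0539. With 3 libraries in a group, this check cannot exclude a pairing. With the replicate block the counts were 8 in Lyso against WT, 4 in Tumor against WT, where Gbp10 lost its call (adjusted p = 0.0947), and 0 higher and 6 lower in Tumor against Lyso. The block numbered 4 holds Tumor4 alone, so that library adds nothing to those values. Depth limits the low members: 3 counts stand for 1.70 CPM in WT1, above the levels of Gbp4, Gbp5, Gbp6, Gbp9 and Gbp10 in WT3.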
